A study of Mus musculus with 9 samples.

Results

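The MHC class II genes examined here were H2-Aa, H2-Ab1, H2-Eb1, H2-DMa, H2-DMb1, Cd74 and Ciita, taken by gene symbol from a table of read counts. All 7 had a row among the 24391 rows of the table, and all 7 were among the 12573 genes that passed the filter on low counts. The libraries came from bone marrow cells of C57BL/6 mice aged 6 to 8 weeks with AML1-ETO9a leukaemia, a model that carries a shortened AML1-ETO fusion. Sorting used CD43, a sialylated surface glycoprotein of leukocytes encoded by Spn, and c-kit, the stem cell factor receptor encoded by Kit. This gave 3 populations with 3 libraries each, namely CD43++ckit+, CD43+ckit- and CD43-ckit-. All groups carried the leukaemia, so no library of healthy marrow served as a reference. The labels give the cells only as bone marrow cells and do not say how the mice were made leukaemic, how many there were, or whether replicate libraries were made from different animals. The p-values therefore measure only the spread between these libraries.

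MHC class II molecules present peptides from endosomes to CD4 T cells. H2-Aa and H2-Ab1 encode the alpha and beta chains of I-A, and H2-Eb1 the beta chain of I-E. Mice of the C57BL/6 strain lack a functional alpha chain of I-E and display I-A only. Cd74 encodes the invariant chain, which guides the new alpha-beta dimers to endosomes and blocks their groove, and H2-DMa and H2-DMb1 encode the H2-DM heterodimer that exchanges the last invariant chain fragment for a peptide. Ciita encodes the transactivator that is recruited to the class II promoters, where RFX, CREB and NF-Y sit on the X and Y boxes. In the GENCODE vM21 annotation of GRCm38, H2-Aa lies at chr17:34282744-34287823, H2-Ab1 at chr17:34257689-34269419, H2-Eb1 at chr17:34305867-34316674, H2-DMa at chr17:34119541-34139101 and H2-DMb1 at chr17:34153072-34160230. Ciita lies at chr16:10480059-10528418, and Cd74 on another chromosome. In marrow these genes are used mainly by B-lineage cells, dendritic cells, monocytes and macrophages.

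The promoter windows of RefSeq (GRCm38.p6, from 250 bases before to 50 after each gene start) held H2-Aa, H2-Eb1, H2-DMa and H2-DMb1, which is 4 of the 7 genes, and also H2-DMb2, H2-Ob and H2-Oa. Stretches of 80 bases around the Y box are shown because they hold letters that the factors of class II promoters are known to bind. Capitals mark matches to CTGATTGG or its core ATTGG (the Y box), to the X box, of which some positions may hold any base, and to AACNNATG, a part of the X box that was chosen after the windows had been read. The core lies within the longer Y box, and the part within the X box. Each line runs 5′ to 3′ on the strand of its gene.
H2-Aa, chr17:34287848-34287927, minus strand: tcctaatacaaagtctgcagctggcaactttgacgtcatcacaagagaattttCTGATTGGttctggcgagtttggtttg
H2-Eb1, chr17:34305752-34305831, plus strand: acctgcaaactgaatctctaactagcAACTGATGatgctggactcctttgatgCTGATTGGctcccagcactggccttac
H2-DMb1, chr17:34153074-34153153, plus strand: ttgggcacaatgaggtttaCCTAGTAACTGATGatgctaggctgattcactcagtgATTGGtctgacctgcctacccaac
H2-DMb2, chr17:34145103-34145182, plus strand: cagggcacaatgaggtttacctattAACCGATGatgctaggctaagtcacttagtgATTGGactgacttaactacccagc
H2-Ob, chr17:34238792-34238871, plus strand: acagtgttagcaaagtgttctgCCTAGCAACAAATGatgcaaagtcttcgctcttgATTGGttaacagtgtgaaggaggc
H2-Oa, chr17:34092280-34092359, plus strand: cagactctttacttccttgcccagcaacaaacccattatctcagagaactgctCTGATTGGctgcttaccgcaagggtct

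The full Y box began 51 bases before the start of H2-Aa, 62 before that of H2-Eb1 and 46 before that of H2-Oa. With both strands searched, 4.10% of all 32851 windows held it. The core was found in 37.4% of windows. Each stretch was placed around a core, so its presence in all 6 stretches was fixed by that choice. The X box letters were present in H2-DMb1 and H2-Ob, beginning 98 and 91 bases before the start, and in 0.749% of all windows. The shorter part was present in 8.86% of windows, among them H2-Eb1 and H2-DMb2. Of the 2 windows of H2-DMa, 1 held the core only and the other held no match.

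Read depth was 17966197 to 31781746 counts per library. Levels are given as CPM, counts per 1000000 after scaling of the library totals by TMM, a method that assumes most genes do not differ. The scaling factors were 1.26 to 1.41 in CD43++ckit+ cells, 1.05 to 1.14 in CD43+ckit- cells and 0.589 to 0.776 in CD43-ckit- cells. Kit stood at 146 to 176 CPM in CD43++ckit+ cells, 7.80 to 21.0 CPM in CD43+ckit- cells and 18.9 to 42.1 CPM in CD43-ckit- cells. Spn stood at 432 to 555 CPM in CD43++ckit+ cells, 137 to 232 CPM in CD43+ckit- cells and 71.7 to 180 CPM in CD43-ckit- cells, so its mRNA overlapped between the last pair of populations, which had been sorted apart on the protein. Library 3 of CD43++ckit+ stood apart from its replicates, with a mean correlation of 0.943 with them over log2 CPM, and it held 66.9 CPM of the 7 class II genes together, against 11.3 and 5.12 CPM in libraries 1 and 2. Values without it are given below for both comparisons of CD43++ckit+.

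All 7 class II genes were lower in both CD43+ populations than in CD43-ckit- cells, by 3.86-fold to 7.82-fold with all 9 libraries, and none of the 7 passed the test between CD43++ckit+ and CD43+ckit-. The summed level was 11.3, 5.12 and 66.9 CPM in CD43++ckit+ cells, 14.7, 42.9 and 31.8 CPM in CD43+ckit- cells, and 210.0, 158 and 193 CPM in CD43-ckit- cells. These sums rest on 187 to 2998 counts a library in CD43++ckit+, 436 to 1278 in CD43+ckit- cells and 2418 to 2693 in CD43-ckit- cells. In bulk libraries a smaller share of cells with class II mRNA and less of it per cell cannot be told apart.

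The chains of the class II molecule followed one order of libraries. H2-Aa had 1.51, 0.465 and 8.69 CPM in the CD43++ckit+ libraries, 2.05, 5.16 and 3.88 CPM in CD43+ckit- cells, and 28.7, 22.2 and 28.2 CPM in CD43-ckit- cells. The CD43-ckit- libraries lay above all others, and the CD43++ckit+ libraries spanned the range of CD43+ckit- on both sides. H2-Aa was lower by a log2 fold change of -2.88 ± 0.90 (SE) in CD43++ckit+ than in CD43-ckit- cells (edgeR quasi-likelihood test, Benjamini-Hochberg adjusted p = 0.0197) and by -2.83 ± 0.90 in CD43+ckit- cells (adjusted p = 0.0286).

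H2-Ab1, the partner of H2-Aa, had 1.92, 0.848 and 16.1 CPM in CD43++ckit+ cells, 3.83, 9.12 and 6.06 CPM in CD43+ckit- cells, and 42.3, 34.2 and 39.5 CPM in CD43-ckit- cells. Its log2 fold change against CD43-ckit- was -2.62 ± 0.95 in CD43++ckit+ cells (adjusted p = 0.0377) and -2.61 ± 0.95 in CD43+ckit- cells (adjusted p = 0.0485). The alpha chain moved in step with it: the ratio of H2-Aa to H2-Ab1 counts was 0.540 to 0.787 in CD43++ckit+ cells, 0.535 to 0.640 in CD43+ckit- cells and 0.648 to 0.713 in CD43-ckit- cells, while the level of H2-Ab1 itself ranged from 0.848 to 42.3 CPM. H2-Eb1 had 0.896, 0.574 and 10.3 CPM in CD43++ckit+ cells, 1.51, 5.70 and 3.65 CPM in CD43+ckit- cells, and 30.7, 24.2 and 30.2 CPM in CD43-ckit- cells. The order of the 9 libraries was the same for H2-Aa, H2-Ab1 and H2-Eb1. Its log2 fold changes against CD43-ckit- were -2.85 ± 1.03 in CD43++ckit+ cells (adjusted p = 0.0370) and -2.97 ± 1.04 in CD43+ckit- cells (adjusted p = 0.0421). H2-Ea-ps, the inactive gene of the I-E alpha chain, had 0 counts in all 9 libraries.

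Cd74, the invariant chain, had the highest level of the 7 genes per exonic length in each population. It had 4.02, 1.37 and 24.1 CPM in CD43++ckit+ cells, 5.01, 16.5 and 12.9 CPM in CD43+ckit- cells, and 92.5, 57.2 and 69.8 CPM in CD43-ckit- cells. Its libraries did not overlap between CD43-ckit- and either CD43+ population. The log2 fold change against CD43-ckit- was -2.89 ± 0.95 in CD43++ckit+ cells (adjusted p = 0.0252) and -2.67 ± 0.94 in CD43+ckit- cells (adjusted p = 0.0429). For each H2-Aa count there were 2.44 to 3.31 Cd74 counts in every library, whatever the population.

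The subunits of the peptide exchange factor were lower too. H2-DMa had 1.59, 0.848 and 4.64 CPM in CD43++ckit+ cells, 1.45, 3.86 and 3.33 CPM in CD43+ckit- cells, and 7.46, 11.1 and 14.8 CPM in CD43-ckit- cells. The log2 fold change against CD43-ckit- was -2.23 ± 0.63 in CD43++ckit+ cells (adjusted p = 0.0110) and -1.95 ± 0.62 in CD43+ckit- cells (adjusted p = 0.0270). H2-DMb1 had 1.05, 0.657 and 1.81 CPM in CD43++ckit+ cells, 0.437, 1.24 and 1.09 CPM in CD43+ckit- cells, and 3.54, 6.55 and 7.25 CPM in CD43-ckit- cells. H2-DMb1 had the smallest adjusted p of the 7 genes, with log2 fold changes against CD43-ckit- of -2.29 ± 0.52 in CD43++ckit+ cells (adjusted p = 0.00356) and -2.64 ± 0.53 in CD43+ckit- cells (adjusted p = 0.00332). In the same annotation 10.4% of the exonic bases of H2-DMa overlap exons of Brd2 on the opposite strand, and 22.7% of the 50-base stretches of H2-DMb1 transcripts also occur in H2-DMb2. Brd2 stood at 292 to 302 CPM in CD43++ckit+ cells, 423 to 468 CPM in CD43+ckit- cells and 1734 to 2659 CPM in CD43-ckit- cells. Whether the counts used strand is not given in the sources used here, so the part of Brd2 reads in the H2-DMa level was not tested.

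Ciita, the transactivator, had the lowest level per exonic length of the 7 genes in each population. It had 0.307, 0.356 and 1.38 CPM in CD43++ckit+ cells, 0.370, 1.24 and 0.897 CPM in CD43+ckit- cells, and 4.79, 2.81 and 3.45 CPM in CD43-ckit- cells. That was 11 to 62 counts in each library of the CD43+ populations and 43 to 61 counts in each CD43-ckit- library. The log2 fold change against CD43-ckit- was -2.41 ± 0.66 in CD43++ckit+ cells (adjusted p = 0.00965) and -2.13 ± 0.65 in CD43+ckit- cells (adjusted p = 0.0232). Exons of Dexi, a gene on the opposite strand, cover 3.45% of the exonic bases of Ciita, and Dexi went the other way, with 11.9 to 15.05 CPM in CD43++ckit+ cells, 11.9 to 16.4 CPM in CD43+ckit- cells and 4.79 to 6.75 CPM in CD43-ckit- cells.

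**Figure D1:**
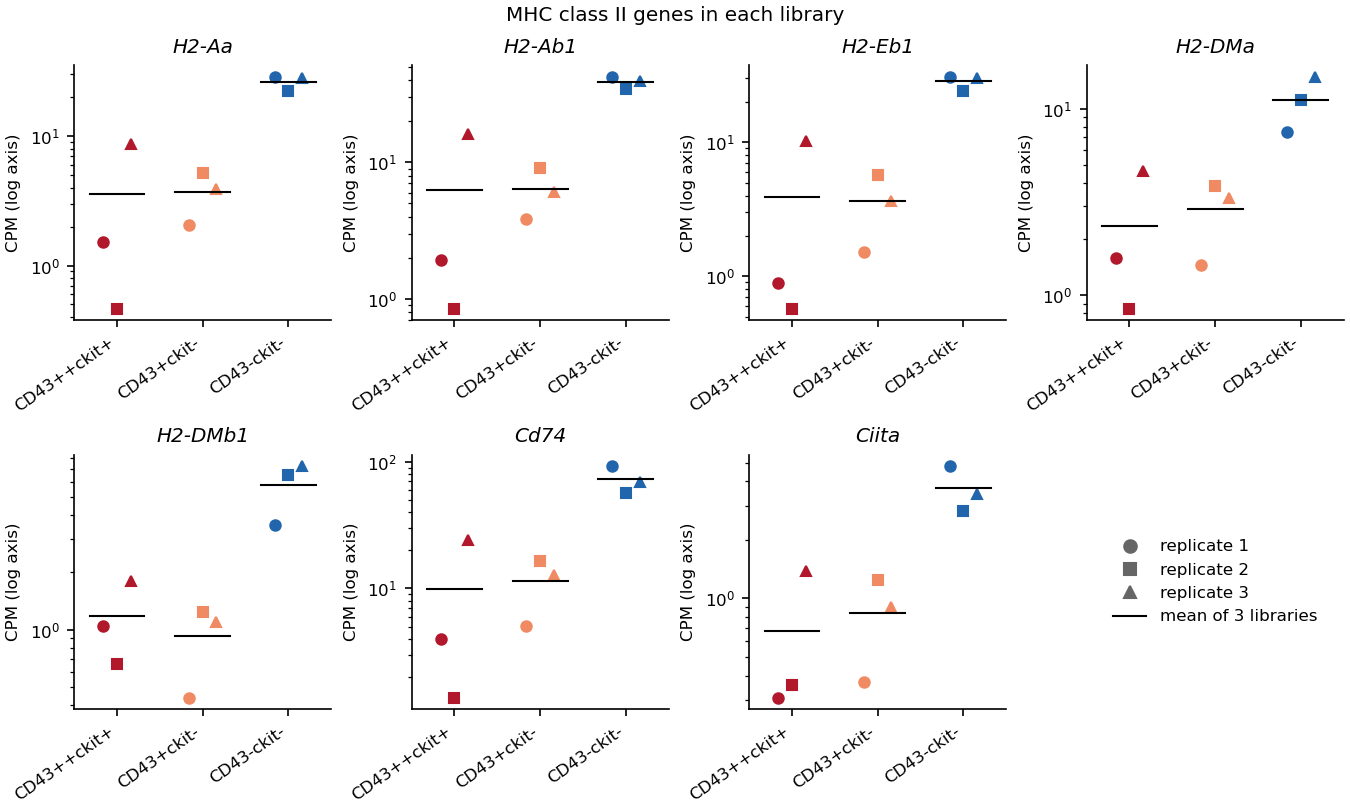
Level of each of the 7 MHC class II genes in CPM, on log axes, in the 9 libraries (symbols mark the replicates, lines the mean of 3 libraries). In every panel the CD43-ckit- libraries lie above all others, and replicate 3 of CD43++ckit+ lies above replicates 1 and 2.

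Divided by the exonic length of each gene, so that genes can be set beside each other, Cd74 led in each population, with 5.85 ± 7.39 CPM per kb in CD43++ckit+ cells, 6.83 ± 3.51 in CD43+ckit- cells and 43.6 ± 10.7 in CD43-ckit- cells (mean ± SD, n = 3 each). In CD43-ckit- the order below it was H2-Ab1 at 15.1 ± 1.6, H2-Eb1 at 14.6 ± 1.9, H2-Aa at 6.94 ± 0.95, H2-DMb1 at 3.44 ± 1.17, H2-DMa at 3.23 ± 1.06 and Ciita at 0.386 ± 0.106 CPM per kb. On this scale H2-Ab1 and H2-Eb1 did not differ beyond their spread, nor did the subunits of H2-DM. The lengths join all annotated exons of a gene, 3448 bases for H2-DMa and 1681 for H2-DMb1, so the comparison between genes depends on them. In counts H2-DMa was 1.70 to 2.11 times H2-DMb1 in the CD43-ckit- libraries. In CD43++ckit+ the SD exceeded the mean for H2-Aa, H2-Ab1, H2-Eb1 and Cd74, and Ciita was the lowest of the 7 and Cd74 the highest in each of its libraries.

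Between CD43++ckit+ and CD43-ckit-, 7 of 7 class II genes were called lower, where 27.7% of all tested genes were called lower, 39.7% higher and 67.4% in either direction. Their log2 fold changes ran from -2.89 to -2.23 with a median of -2.62, against a median of 0.19 over all tested genes. The libraries of these populations did not overlap for any of the 7 genes, a separation that 73.2% of all tested genes showed. Scaled by library totals in place of TMM, the 7 genes stayed lower in CD43++ckit+, but none was called, and H2-DMa and H2-DMb1 overlapped. That scaling raised the median of all genes by 0.91 (log2) in this comparison, and with it 82.2% of calls were higher in CD43++ckit+, against 58.9% with TMM. The calls also depended on single libraries: 3 of the 7 remained significant without CD43++ckit+ replicate 1, 4 without CD43-ckit- replicate 1, 5 without any single one of CD43+ckit- replicates 1 to 3 or CD43-ckit- replicates 2 and 3, 6 without CD43++ckit+ replicate 2 and 7 without CD43++ckit+ replicate 3. Without that last library the log2 fold changes were larger, at -4.71 for H2-Aa, -4.78 for H2-Ab1, -5.25 for H2-Eb1, -3.17 for H2-DMa, -2.74 for H2-DMb1, -4.75 for Cd74 and -3.44 for Ciita. The adjusted p was 0.00142 for H2-DMb1 and lower for the other 6.

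Between CD43+ckit- and CD43-ckit-, 7 of 7 were called lower as well, where 20.9% of all tested genes were called lower, 31% higher and 51.9% in either direction. The log2 fold changes ran from -2.97 to -1.95 with a median of -2.64, against 0.13 over all tested genes, and no gene of the 7 overlapped between the populations, as for 64.3% of all tested genes. Same-numbered libraries of these populations deviated together from their population means, though libraries 2 and 3 did so across numbers as well. With the replicate number as a block Cd74 lost its call (adjusted p = 0.0611 over all 9 libraries, 0.0532 over the 6 compared), as did H2-Ab1 over all 9 libraries (adjusted p = 0.0655). Scaling by library totals kept all 7 genes lower and 1 call, that of H2-DMb1, and raised the median of all genes by 0.65. Leaving out 1 library left 1 call without CD43+ckit- replicate 1 or 3, 2 without CD43-ckit- replicate 1 or 3, 3 without CD43+ckit- replicate 2 or CD43-ckit- replicate 2, and 7 without any one of the CD43++ckit+ libraries.

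Between CD43++ckit+ and CD43+ckit-, 0 of 7 class II genes were called by edgeR, and 0 had an unadjusted p under 0.05. DESeq2 also called 0, with 0 at an unadjusted p under 0.05, but of 4 genes only, since it gave no adjusted p for H2-Aa, H2-Ab1 and H2-Eb1. In this comparison 39.8% of all tested genes were called, 20.1% lower and 19.7% higher. The log2 fold changes ran from -0.28 to 0.35 with standard errors of 0.51 to 0.98, and the libraries overlapped for all 7 genes, while 55.5% of all tested genes did not overlap. The result rested on 1 library. Without CD43++ckit+ replicate 3, 4 of the 7 were called lower in CD43++ckit+, namely H2-Ab1 (log2 fold change -2.19, adjusted p = 0.00391), H2-Eb1 (-2.29, adjusted p = 0.00723), H2-Aa (-1.89, adjusted p = 0.0160) and Cd74 (-2.08, adjusted p = 0.0165). In the joint test of the 3 populations 7 of 7 were called, where 74.8% of all tested genes were.

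**Figure D2:**
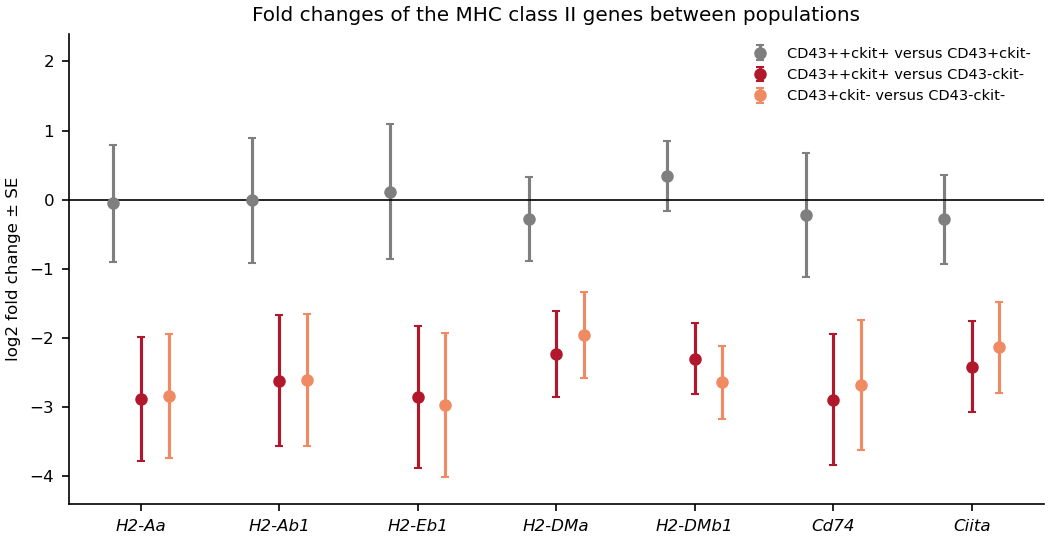
Log2 fold changes of the 7 MHC class II genes in the 3 comparisons, with the first-named population over the second (points; bars are ± 1 SE from the edgeR fit of 9 libraries). Values against CD43-ckit- lie between -2.97 and -1.95, and those between the CD43+ populations lie around 0 with bars that cross it.

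Relative to their size, the shares of the H2-DM subunits and Ciita in the class II counts varied more than that of Cd74, which ran from 26.7% to 44.1%. In CD43++ckit+ libraries 1 and 2, H2-DMa made up 14.1% and 16.6% of the class II counts (95% Wilson intervals 11.1% to 17.6% and 11.9% to 22.6%), against 6.94% in library 3 (6.08% to 7.90%). The share was 9.86%, 8.998% and 10.5% in CD43+ckit- cells, and 3.55%, 7.03% and 7.65% in CD43-ckit- cells. H2-DMb1 made up 9.30%, 12.8% and 2.70% in CD43++ckit+ cells, 2.98%, 2.90% and 3.43% in CD43+ckit- cells, and 1.68%, 4.14% and 3.75% in CD43-ckit- cells. The H2-DM shares were thus highest in CD43++ckit+ libraries 1 and 2, which held 441 and 187 class II counts. CD43+ckit- library 1 held 436. The part of low counts, or of Brd2 and H2-DMb2 reads, in these shares was not tested. Ciita made up 2.72%, 6.95% and 2.07% in CD43++ckit+ cells, 2.52%, 2.90% and 2.83% in CD43+ckit- cells, and 2.28%, 1.78% and 1.78% in CD43-ckit- cells. The intervals cover counting error only.

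**Figure D3:**
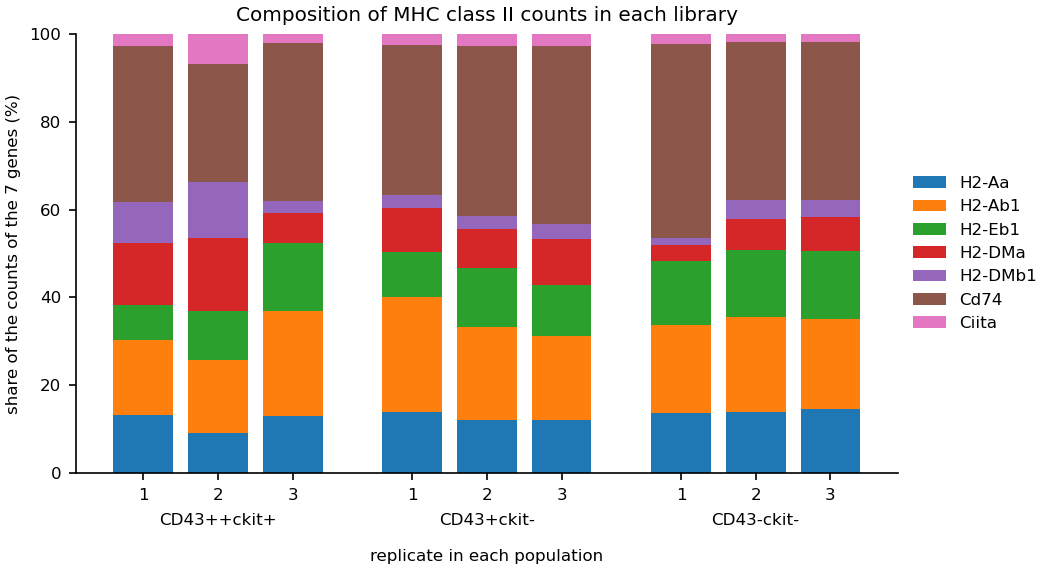
Share of each of the 7 genes in their summed counts (percent, stacked) in each library, grouped by population. Cd74 takes 26.7% to 44.1% of each bar, and the segments of H2-DMa and H2-DMb1 are tallest in replicates 1 and 2 of CD43++ckit+.

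Other class II genes were read beside these. H2-DMb2, a second beta chain of H2-DM, had 0.179, 0.0547 and 0.893 CPM in CD43++ckit+ cells, 0.134, 1.24 and 0.545 CPM in CD43+ckit- cells, and 6.36, 1.77 and 3.52 CPM in CD43-ckit- cells. That was only 7, 2 and 40 counts in the CD43++ckit+ libraries. In CD43+ckit- relative to CD43-ckit- cells it was not called (log2 fold change -2.59, adjusted p = 0.0530), though it was under 8 of 17 alternatives. Its log2 fold change was -3.33 ± 1.02 in CD43++ckit+ relative to CD43-ckit- cells (adjusted p = 0.0169, 0.0591 without CD43++ckit+ replicate 1 and 0.0598 without CD43-ckit- replicate 1, 0.0660 with library totals). H2-Ob, the beta chain of H2-DO, an inhibitor of H2-DM in B cells, had 1.48, 1.75 and 1.18 CPM in CD43++ckit+ cells, 0.437, 1.34 and 0.737 CPM in CD43+ckit- cells, and 8.72, 3.21 and 3.45 CPM in CD43-ckit- cells. It was lower by -1.79 ± 0.51 in CD43++ckit+ cells than in CD43-ckit- cells (adjusted p = 0.0122, 0.0543 without CD43-ckit- replicate 1 and 0.143 with library totals) and by -2.60 ± 0.53 in CD43+ckit- cells (adjusted p = 0.00379). H2-Eb2 had 0 to 3 counts a library and was not tested.

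H2-Oa, the alpha chain of H2-DO, went the other way. It had 4.02, 5.09 and 2.88 CPM in CD43++ckit+ cells, 0.773, 1.68 and 1.09 CPM in CD43+ckit- cells, and 1.34, 1.90 and 1.29 CPM in CD43-ckit- cells. The CD43++ckit+ libraries lay above the 6 others, with log2 fold changes of 1.76 ± 0.38 over CD43+ckit- (adjusted p = 0.00578) and 1.40 ± 0.38 over CD43-ckit- (adjusted p = 0.00935). Per 100 counts of H2-Aa, H2-Ab1, H2-Eb1 and Cd74 together there were 48.2, 156 and 4.87 H2-Oa counts in CD43++ckit+ cells, 6.23, 4.59 and 4.12 in CD43+ckit- cells, and 0.688, 1.38 and 0.770 in CD43-ckit- cells. Library 3 of CD43++ckit+, the highest of its population for the 7 genes, was its lowest for H2-Oa. The gene BC051537 on the opposite strand covers 22.8% of the exonic bases of H2-Oa. It had 3.94 to 4.67 CPM in CD43++ckit+ cells, 3.59 to 3.83 CPM in CD43+ckit- cells and 1.34 to 2.37 CPM in CD43-ckit- cells, and its part in the H2-Oa counts was not tested.

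**Figure D4:**
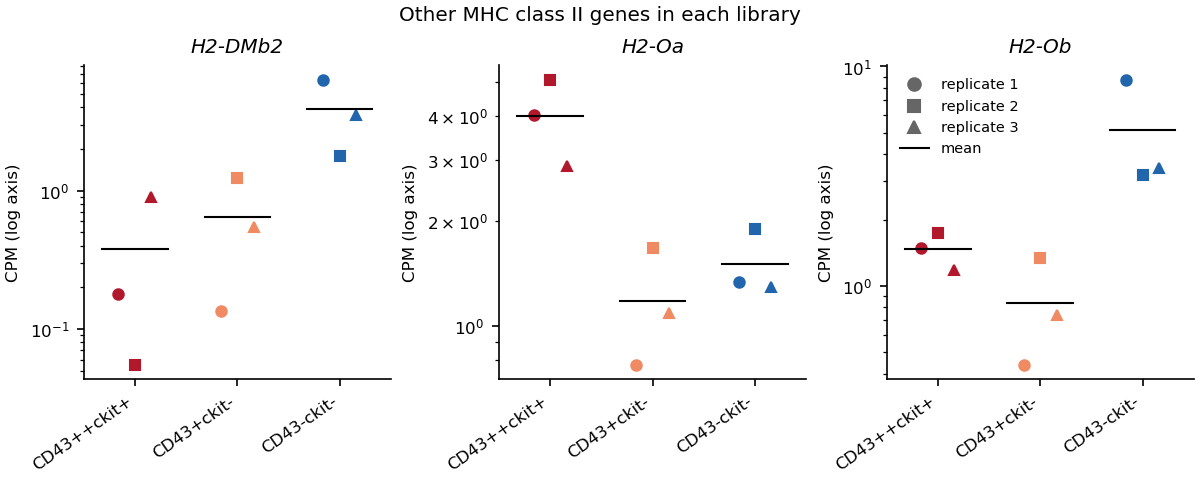
Level of H2-DMb2, H2-Oa and H2-Ob in CPM on log axes in the 9 libraries (symbols mark the replicates, lines the mean). H2-Oa is highest in CD43++ckit+, at 2.88 to 5.09 CPM, while H2-DMb2 and H2-Ob are highest in CD43-ckit-.

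Among the 7 factors that bind the class II promoters (Rfx5, Rfxap, Rfxank, Nfya, Nfyb, Nfyc and Creb1), 2 were called lower and 1 higher in CD43++ckit+ against either other population, and 2 higher in CD43+ckit- against CD43-ckit-. Of all tested genes, 20.1% were called lower and 19.7% higher in CD43++ckit+ against CD43+ckit-. Against CD43-ckit- the shares were 27.7% and 39.7%, and 31% were higher in CD43+ckit-. The counts of these factors were thus near or below the background. Rfxank, a subunit of the RFX complex, had 12.8, 13.9 and 13.0 CPM in CD43++ckit+ cells, 38.5, 40.0 and 31.8 CPM in CD43+ckit- cells, and 43.1, 30.6 and 34.5 CPM in CD43-ckit- cells. It was lower in CD43++ckit+ by -1.47 ± 0.16 against the CD43+ckit- cells (adjusted p = 0.000406) and by -1.45 ± 0.16 against the CD43-ckit- cells (adjusted p = 8.01e-05). The CD43+ckit- and CD43-ckit- libraries overlapped for Rfxank, whereas for the 7 class II genes it was the CD43++ckit+ and CD43+ckit- libraries that overlapped. Nfyc, a subunit of NF-Y, was lower in CD43++ckit+ by -0.57 ± 0.13 against the CD43+ckit- cells (adjusted p = 0.00671) and by -0.63 ± 0.13 against the CD43-ckit- cells (adjusted p = 0.00196), but with library totals the second value turned to 0.30 (adjusted p = 0.0297). Nfya, the subunit that contacts the CCAAT letters, was higher by 0.87 ± 0.12 in CD43++ckit+ cells than in CD43-ckit- cells (adjusted p = 0.000262).

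Of 10 genes listed as activators and repressors of Ciita, 7 were called lower and 1 higher in CD43++ckit+ cells than in CD43-ckit- cells. Of all tested genes, 27.7% were called lower and 39.7% higher. The gene called higher was Prdm1, a repressor, at 0.81 (adjusted p = 0.0211), and it lost its call under 4 of 18 alternatives. The list also held Nlrc5, the class I transactivator. The median log2 fold change of -1.44 thus pools genes of unlike action. Irf1, an interferon-induced transcription factor, was lower in CD43++ckit+ cells than in CD43-ckit- cells by -2.33 ± 0.50 (adjusted p = 0.00284), and Spi1, the myeloid and B-cell factor PU.1, by -1.16 ± 0.21 (adjusted p = 0.00111, but 0.415 with library totals). Pax5, the B-lineage factor, had 0.333, 0.0547 and 1.54 CPM in CD43++ckit+ cells, 1.01, 2.45 and 1.63 CPM in CD43+ckit- cells, and 14.4, 4.97 and 4.95 CPM in CD43-ckit- cells. Like the class II genes other than Ciita it was lowest in replicate 2 and highest in replicate 3 of CD43++ckit+, with a log2 fold change of -3.63 ± 0.96 against the CD43-ckit- cells (adjusted p = 0.00850).

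Among the interferon gamma receptor chains and their kinases, 3 of 4 were called lower in both CD43+ populations than in CD43-ckit- cells. Of all tested genes, 27.7% were called lower in CD43++ckit+ and 20.9% in CD43+ckit-. With library totals Ifngr2 kept its calls, while the kinases Jak1 (adjusted p = 0.692 for CD43++ckit+ and 0.398 for CD43+ckit-) and Jak2 (0.200 and 0.0776) lost theirs. Jak1 also lost its call for CD43+ckit- without CD43+ckit- replicate 3 (adjusted p = 0.0611). Ifngr2, the signalling chain, had 25.2, 23.9 and 28.1 CPM in CD43++ckit+ cells, 45.5, 65.5 and 57.3 CPM in CD43+ckit- cells, and 266, 214 and 194.6 CPM in CD43-ckit- cells. The 3 populations were separate, with log2 fold changes of -1.12 ± 0.17 in CD43++ckit+ relative to CD43+ckit- cells (adjusted p = 0.00122), -3.13 ± 0.18 in CD43++ckit+ relative to CD43-ckit- cells (adjusted p = 2.39e-06) and -2.003 ± 0.17 in CD43+ckit- relative to CD43-ckit- cells (adjusted p = 6.63e-05).

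Of 10 genes for proteases, a protease inhibitor and a reductase of class II peptide preparation, 7 were called lower in CD43++ckit+ against CD43-ckit-, where 27.7% of all tested genes were, and 4 against CD43+ckit-, where 20.1% were. Lgmn, the asparagine endopeptidase that cuts the invariant chain, had 4.15, 2.30 and 10.6 CPM in CD43++ckit+ cells, 29.5, 77.2 and 52.3 CPM in CD43+ckit- cells, and 1153, 1060 and 867 CPM in CD43-ckit- cells. Its log2 fold changes were -3.21 ± 0.56 in CD43++ckit+ relative to CD43+ckit- cells (adjusted p = 0.00250), -7.49 ± 0.68 in CD43++ckit+ relative to CD43-ckit- cells (adjusted p = 3.39e-05) and -4.28 ± 0.58 in CD43+ckit- relative to CD43-ckit- cells (adjusted p = 0.000601). Ctsb, a lysosomal cysteine protease, was lower by -1.99 ± 0.19 in CD43++ckit+ cells than in CD43+ckit- cells (adjusted p = 0.000326). Ctss, the protease of the last steps of invariant chain removal in B and dendritic cells, was closer to the 7 genes in its levels, at 4.12, 1.48 and 13.2 CPM in CD43++ckit+ cells, 2.89, 9.39 and 8.62 CPM in CD43+ckit- cells, and 21.1, 33.6 and 34.7 CPM in CD43-ckit- cells. Its log2 fold change between CD43++ckit+ and CD43-ckit- was -2.25 ± 0.74 (adjusted p = 0.0251), and the call was lost without CD43++ckit+ replicate 1 (0.0831), CD43-ckit- replicate 2 (0.0538) or CD43-ckit- replicate 3 (0.0560), with library totals (0.147), with no filter (0.0642) and with these populations alone (0.0517).

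The invariant chain also serves at the surface as a receptor for MIF, a cytokine. Mif had 53.0, 49.6 and 33.3 CPM in CD43++ckit+ cells, 12.7, 19.0 and 16.3 CPM in CD43+ckit- cells, and 11.4, 21.3 and 24.3 CPM in CD43-ckit- cells. It was higher in CD43++ckit+ by 1.501 ± 0.30 over CD43+ckit- (adjusted p = 0.00402) and by 1.25 ± 0.30 over CD43-ckit- (adjusted p = 0.00472), and so ran opposite to Cd74 in the second comparison. Of the 5 genes of MIF and its receptors, 1 was called higher and 1 lower in CD43++ckit+ against either other population. These counts were near or below the background. Of all tested genes, 19.7% were called higher and 20.1% lower against CD43+ckit-, and 39.7% and 27.7% against CD43-ckit-.

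Of 7 costimulation genes, 5 were called lower in CD43++ckit+ and 4 in CD43+ckit- cells than in CD43-ckit- cells, where 27.7% and 20.9% of all tested genes were. Cd80, a ligand of CD28, had 0.538, 0.821 and 0.447 CPM in CD43++ckit+ cells, 0.706, 0.738 and 0.673 CPM in CD43+ckit- cells, and 3.77, 4.06 and 3.23 CPM in CD43-ckit- cells. Its log2 fold change against CD43-ckit- was -2.61 ± 0.33 in CD43++ckit+ cells (adjusted p = 0.000154) and -2.38 ± 0.33 in CD43+ckit- cells (adjusted p = 0.000563). Replicate 3 of CD43++ckit+ was the lowest library for Cd80, unlike for the class II genes. In the MHC class I list 4 of 6 genes were called lower in CD43++ckit+ against either other population. Of all tested genes, 20.1% were called lower against CD43+ckit- and 27.7% against CD43-ckit-. H2-D1, a class I heavy chain, fell by 3.05 on the log2 scale against CD43-ckit- (adjusted p = 2.11e-06) and by 1.18 against CD43+ckit- (adjusted p = 0.000803).

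Markers of other cell types differed between the libraries too. Summed over 20 B-lineage markers the level was 14.98, 7.003 and 51.1 CPM in CD43++ckit+ cells, 30.7, 91.1 and 62.6 CPM in CD43+ckit- cells, and 459, 179 and 216 CPM in CD43-ckit- cells. For 19 monocyte and macrophage markers it was 43.5, 28.7 and 218 CPM in CD43++ckit+ cells, 34.4, 108 and 87.1 CPM in CD43+ckit- cells, and 299.9, 406 and 451 CPM in CD43-ckit- cells. Like the class II sum, both lists were highest in replicate 3 of CD43++ckit+ and lowest in replicate 1 of CD43+ckit-, each within its population. These traits were not particular to them, since the neutrophil sum and the stroma and endothelium sum showed both. The dendritic cell, T and NK cell and erythroid sums were also highest in replicate 3 of CD43++ckit+. The mast cell and basophil sum was lowest there. Within CD43-ckit-, replicate 1 was the highest library for class II and for the B-lineage markers and the lowest for the monocyte and macrophage markers. Replicate 1 was also the highest there for the dendritic cell, erythroid, mast cell and basophil, and stroma and endothelium sums. It was the lowest for the neutrophil and the T and NK cell sums too. Relative to library totals without TMM scaling, replicate 3 of CD43-ckit- was the highest for class II. No B-lineage marker but 1, in 1 library, was at 0 counts.

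Set against these sums, the class II sum was 0.754, 0.730 and 1.31 times the B-lineage sum in CD43++ckit+, 0.478, 0.470 and 0.507 times in CD43+ckit- cells, and 0.457, 0.884 and 0.895 times in CD43-ckit- cells. Against the monocyte and macrophage sum it was 0.259, 0.178 and 0.306 times in CD43++ckit+ cells, 0.427, 0.398 and 0.365 times in CD43+ckit- cells, and 0.700, 0.390 and 0.428 times in CD43-ckit- cells. Against the dendritic cell sum it was 0.523, 0.285 and 2.42 times in CD43++ckit+ cells, 0.250, 0.860 and 0.665 times in CD43+ckit- cells, and 1.55, 1.61 and 2.04 times in CD43-ckit- cells. The dendritic cell sum rests mainly on Zbtb46, as given below. Against the neutrophil sum the class II sum was 0.0111 to 0.0536 times in CD43++ckit+ cells, 0.0108 to 0.0301 times in CD43+ckit- cells and 0.00954 to 0.0547 times in CD43-ckit- cells.

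Of 18 tested B-lineage markers, 18 were called lower in CD43++ckit+ and 10 in CD43+ckit- cells against CD43-ckit-. Of 18 tested monocyte and macrophage markers, 5 and 14 were called lower. Among all tested genes 27.7% were called lower in CD43++ckit+ and 20.9% in CD43+ckit-, so the 5 monocyte and macrophage markers were near the background. The 14 dendritic cell markers summed to 21.6, 17.9 and 27.7 CPM in CD43++ckit+ cells, 58.7, 49.8 and 47.8 CPM in CD43+ckit- cells, and 136, 98.1 and 94.7 CPM in CD43-ckit- cells, with 6 of the 14 at 0 counts in CD43++ckit+ replicate 2. Their highest CD43+ckit- library was replicate 1, the lowest of that population for class II. Zbtb46 made up most of this sum, with means of 14.5, 41.5 and 76.8 CPM in CD43++ckit+, CD43+ckit- and CD43-ckit- cells. The whole list averaged 22.4, 52.1 and 109.6 CPM there, so the sum rests mainly on a single gene. Neutrophil markers, 10 genes of cells that have little class II, summed to 355, 95.5 and 6057 CPM in CD43++ckit+ cells, 487, 3707 and 2955 CPM in CD43+ckit- cells, and 3840, 16584 and 17222 CPM in CD43-ckit- cells. Markers of T and NK cells summed to 5.03 to 28.2 CPM in CD43++ckit+ cells, 33.5 to 39.0 CPM in CD43+ckit- cells and 37.1 to 60.1 CPM in CD43-ckit- cells, with 9 of the 14 at 0 counts in CD43++ckit+ replicate 2. In CD43+ckit- cells Lck alone averaged 26.4 CPM, where this sum averaged 35.8 CPM. The part of any of these cells in the class II levels was not tested.

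In both ckit- populations the erythroid markers summed to more than any of these lists, with 962 to 1687 CPM in CD43++ckit+ cells, 12443 to 14847 CPM in CD43+ckit- cells and 28408 to 44053 CPM in CD43-ckit- cells over 7 genes. Alas2, the first enzyme of haem synthesis in red cell precursors, was among them. Mast cell and basophil markers summed to 742 to 1401 CPM in CD43++ckit+ cells, 459 to 534 CPM in CD43+ckit- cells and 1101 to 1401 CPM in CD43-ckit- cells. Markers of stroma and endothelium stood at 1.72 to 7.97 CPM in CD43++ckit+ cells, 5.45 to 8.88 CPM in CD43+ckit- cells and 24.5 to 32.4 CPM in CD43-ckit- cells.

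**Figure D5:**
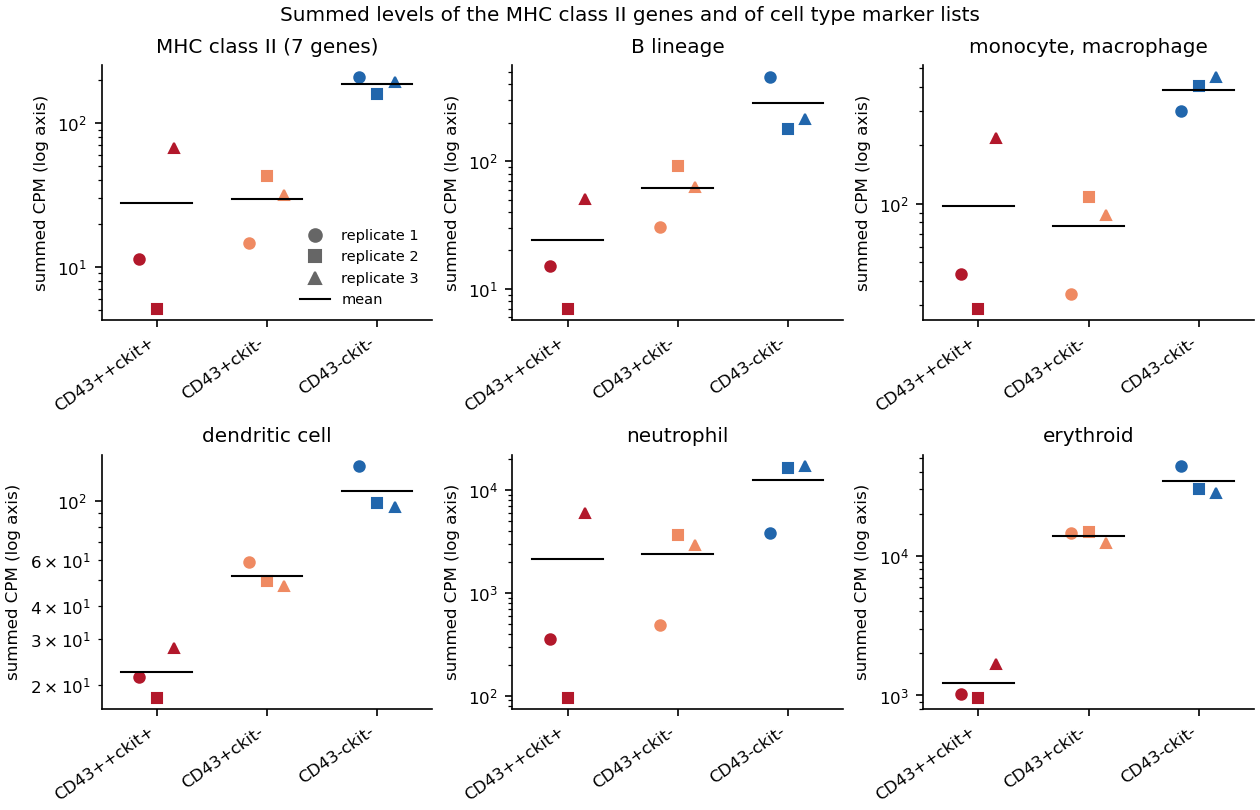
Summed CPM, on log axes, of the 7 MHC class II genes and of 5 lists of cell type markers in the 9 libraries (symbols mark the replicates, lines the mean). The B-lineage, monocyte and neutrophil sums share with the class II sum a high replicate 3 in CD43++ckit+ cells and a low replicate 1 in CD43+ckit- cells. The erythroid and dendritic cell sums separate all 3 populations, and both are also highest in replicate 3 within CD43++ckit+.

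Genes outside the set with the most similar pattern were ranked by Pearson's r with the mean standardized log2 CPM of H2-Aa, H2-Ab1, H2-Eb1 and Cd74 over the 9 libraries, among 9622 genes whose average log2 CPM was 1 or more. The values are descriptive, since the libraries fall into populations and share depth and preparation. Slc38a1, a glutamine transporter, led with 0.994, followed by Epb4.1l2, Pecam1, Map3k1, Cerk, Tfeb, Pik3ap1, Cd93, Marcks and Lbh, the last at 0.985. Slc38a1 had 1.82, 0.793 and 9.09 CPM in CD43++ckit+ cells, 2.02, 4.86 and 4.84 CPM in CD43+ckit- cells, and 19.0, 21.0 and 22.5 CPM in CD43-ckit- cells, and so had a high replicate 3 of CD43++ckit+ in common with the class II genes. When the mean of each population was first subtracted, Siglecg, an inhibitory lectin of B cells, came first with 0.993, followed by Sdc3, Pik3ap1, Cerk, Gpd1l, Trp53inp2, Cxxc5, Cyth1, Sik1 and Slc38a1, the last at 0.983. Slc38a1, Cerk and Pik3ap1 stood in both lists of 10.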

How the data were processed

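The deposited table held whole read counts per gene symbol that the authors had made from 9 libraries of Trizol-extracted total RNA, prepared with an Illumina TruSeq kit. Per the submitters' processing notes, CASAVA 1.8, TopHat2 2.0.4, RSEM, HTSeq and edgeR were used, with no role or order given. The notes name the human build GRCh38 while the symbols are those of mouse, so the annotation behind the counts is uncertain, and whether strand was used is not given in these sources. Among the 24391 rows, 27 had date-like names. These were filtered and tested like the others and are named nowhere.

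Genes were kept by edgeR's filterByExpr (edgeR 4.0.16, R 4.3.3; minimum count 10, minimum total 15), scaled by TMM and tested with edgeR's quasi-likelihood test on all 9 libraries, with Benjamini-Hochberg adjustment over 12573 genes and calls at an adjusted p under 0.05. Standard errors were the absolute log2 fold change divided by the square root of F. Levels per kb used the joined length of all annotated exons of each gene in GENCODE vM21 (GRCm38), not the length of a single transcript. The alternatives included DESeq2 1.42.0, other scalings, filters and samples, a replicate block and leaving out each library. The code was tested on simulated data. No library pair of a population agreed within sampling noise.

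Same-numbered libraries of CD43+ckit- and CD43-ckit- deviated together from their population means (r = 0.53, 0.37 and 0.30, each above 0.1). Numbers 2 and 3 also did so across numbers, with r = 0.34 for CD43+ckit- 2 and CD43-ckit- 3. The r was 0.35 for CD43+ckit- 3 and CD43-ckit- 2. Only number 1 stood apart, so the data do not show which of libraries 2 and 3 belong together. The block by number was taken from the data and not from the labels. For CD43++ckit+ the same-numbered correlations had both signs.

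The text names the 7 genes, genes of the class II lists, the leading genes of the other lists by the joint test, and, by 2 measures, the 10 genes most like the mean of H2-Aa, H2-Ab1, H2-Eb1 and Cd74. The genes, lists and rules were chosen with earlier results of these data known. Intervals of shares are 95% Wilson intervals.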

Additional observations from a re-analysis of the deposited data

How the results depend on the processing

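The 7 class II genes were lower in CD43++ckit+ and in CD43+ckit- than in CD43-ckit- under every alternative run, while the number called depended on the setting. Scaling by library totals left 0 calls for CD43++ckit+ against CD43-ckit-, 1 for CD43+ckit- against CD43-ckit- and 1 in the joint test. No filter on low counts left 3, 3 and 4, and a fit of only the populations compared left 3 for CD43++ckit+ against CD43-ckit-. Leaving out 1 library gave 3 to 7, 1 to 7 and 3 to 7 calls, and 0 to 4 calls between CD43++ckit+ and CD43+ckit-. Leaving out CD43++ckit+ replicate 3, CD43+ckit- replicate 1 and CD43-ckit- replicate 1 together, the libraries least like their replicates and an alternative chosen after seeing the data, gave more calls: 6 of the 7 were called between CD43++ckit+ and CD43+ckit-, and 8557 genes in all against 5005. DESeq2 called 4 of the 4 genes with an adjusted p in each comparison with CD43-ckit-. The causes were not tested.

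Between CD43++ckit+ and CD43+ckit- the log2 fold changes changed sign. With library totals they were 0.27 for H2-Aa, 0.33 for H2-Ab1, 0.0187 for H2-DMa, 0.11 for Cd74 and 0.0203 for Ciita. H2-Ab1 stood at 0.012 with no filter and 0.031 with these populations alone. Without these 3 libraries H2-Eb1 was at -2.66 and H2-DMb1 at -0.44. Leaving out 1 library gave -1.89 to 0.47 for H2-Aa, -2.19 to 0.51 for H2-Ab1, -2.29 to 0.67 for H2-Eb1, -1.24 to 0.12 for H2-DMa, -0.11 to 0.66 for H2-DMb1, -2.08 to 0.30 for Cd74, -1.32 to 0.17 for Ciita and -2.39 to 0.21 for H2-DMb2. With library totals H2-Oa turned to 0.28 between CD43+ckit- and CD43-ckit-, and Nfyc to 0.30 between CD43++ckit+ and CD43-ckit-.

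With the replicate number as a block H2-Eb1 turned to -0.53 over all 9 libraries and -0.77 over these populations, between CD43++ckit+ and CD43+ckit-. There same-numbered libraries did not all deviate together. Between CD43+ckit- and CD43-ckit-, where they did, 5 and 6 of the 7 genes were called with the block. Ciita and H2-DMb1 had the fewest counts, at 11 to 62 and 13 to 101 a library.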
